A study of Caenorhabditis elegans with 2 samples.

Results

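The HSP70 family genes described here are hsp-1, hsp-70, hsp-110, hsp-3, hsp-4, stc-1 and hsp-6, 7 of the 19985 protein-coding genes annotated in the C. elegans genome. They were selected with the peak signals of these data already known, so their signals, ranks and positions are given as a description and no test was made of them. The data are chromatin immunoprecipitation followed by sequencing (ChIP-seq) of ZNF-207, a zinc finger protein encoded by znf-207 (sequence name B0035.1). Both samples came from strain xtl1186, a single transgenic line whose ZNF-207 carries GFP-FLAG at its C terminus, and an anti-GFP antibody pulled down the sonicated chromatin of whole hermaphrodites. Young adults were taken 50 hours after the larvae, starved at L1 following bleaching, had been synchronized. There is 1 group, of 2 biological replicates, and no untagged or input sample was analysed here, so whether these regions also give signal without the tagged protein is not known from these values. The labels name no heat or chemical stress.

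HSP70 chaperones bind exposed hydrophobic stretches of unfolded proteins and release them in a cycle driven by ATP. J-domain proteins deliver clients and speed up hydrolysis, and nucleotide exchange factors, among them the HSP110 relatives and BAG proteins, reset the cycle. Cytosolic family members are under the heat shock factor HSF-1, which binds heat shock elements, whereas the members of the endoplasmic reticulum (ER) and of the mitochondrion are induced by the unfolded protein responses of those compartments.

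A summit is the point that the lists mark within each peak, and a promoter summit is one that lay at most 500 bp before or 200 bp after the annotated start of a gene. The reference sequences around the promoter summits that the description turns on are shown 5′ to 3′ in the direction of the gene, in build WBcel235 (ce11). They are the regions of hsp-1 (chrIV:17278511-17278661, plus strand), hsp-110 (chrIII:8447074-8447224, minus strand) and hsp-3 (chrX:6092125-6092275, minus strand), each 151 bases, and 295 of the bases between the starts of the heat-inducible HSP70 genes F44E5.4 and F44E5.5 (chrII:11759322-11759616, minus strand, the direction of F44E5.4). Capitals mark the 11 bases at the summit of both replicates pooled in hsp-1 and hsp-3, and heat shock elements of 3 or more units in hsp-110 and F44E5.4/F44E5.5.
hsp-1 promoter: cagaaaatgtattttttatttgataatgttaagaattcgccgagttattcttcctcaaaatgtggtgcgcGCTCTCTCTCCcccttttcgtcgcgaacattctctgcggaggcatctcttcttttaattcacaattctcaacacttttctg
hsp-110 promoter: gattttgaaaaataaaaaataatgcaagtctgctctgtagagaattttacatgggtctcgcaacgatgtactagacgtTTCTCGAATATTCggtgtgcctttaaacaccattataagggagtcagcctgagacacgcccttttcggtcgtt
hsp-3 promoter: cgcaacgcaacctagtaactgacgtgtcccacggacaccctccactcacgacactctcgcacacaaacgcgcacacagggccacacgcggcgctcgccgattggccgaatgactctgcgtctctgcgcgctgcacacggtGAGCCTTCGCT
F44E5.4 and F44E5.5 shared region: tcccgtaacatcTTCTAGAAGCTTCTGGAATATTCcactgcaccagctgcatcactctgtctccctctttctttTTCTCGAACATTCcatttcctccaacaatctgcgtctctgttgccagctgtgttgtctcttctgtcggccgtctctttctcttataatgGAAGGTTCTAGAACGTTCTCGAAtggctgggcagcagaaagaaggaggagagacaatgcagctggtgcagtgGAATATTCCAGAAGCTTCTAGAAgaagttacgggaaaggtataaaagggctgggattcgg

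In hsp-1 the summit lay in a run of alternating C and T. In hsp-110 it lay 3 bp outside a heat shock element, and in hsp-3 it lay in GC-rich sequence directly before the annotated start. The region between F44E5.4 and F44E5.5 holds 4 separate heat shock elements, and its summit lay 3 bp from the nearest. The composition of the 151 bases centred on each pooled summit differed among the members. It was 39.7% G and C at hsp-1, 40.4% at hsp-110 and 62.9% at hsp-3, against a median of 45.7% with an interquartile range of 39.7% to 51.0% at the 731 nuclear summits of the thresholded list. Only the hsp-3 value lay above that range. The weaker promoter summits lay in sequence richer in A and T, with 31.8% G and C at hsp-70, 30.5% at hsp-6 and 27.8% at stc-1. The nuclear genome as a whole had 35.4%.

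The thresholded list holds 750 peaks that the authors kept by a threshold on reproducibility. It had a promoter summit at 3 of the 7 genes (hsp-1, hsp-3 and hsp-110), where 1.67% of all protein-coding genes had one. In the longer list of both replicates pooled, which holds 30000 peaks, background included, 6 of 7 had one against 26.2% of all genes. The thresholded peaks are the 750 strongest of this pooled list by signal. Being among them does not by itself show a high rank in each replicate. The 7 genes had a promoter summit at 6 of 7 in replicate 1, against 26.0%, and at 5 of 7 in replicate 2, against 21.7%. hsp-4 was without one in every list, and hsp-6 was without one in replicate 2. The weakest of the thresholded 3, hsp-110, had a pooled signal of 127, and the strongest of the others, hsp-6, had 57.6, with the lowest thresholded signal at 88.6. Since the genes were chosen from these values, nothing is read from the difference between these counts and the background. Peak signals are the authors' own values, whose scale differs from list to list. They are compared inside a list only, and ranks (1 for the strongest peak) are given beside them. Sequencing depth is unknown, because read counts were not analysed here. Whole animals were used, so binding in a few cells and weaker binding in many cannot be told apart.

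**Figure D1:**
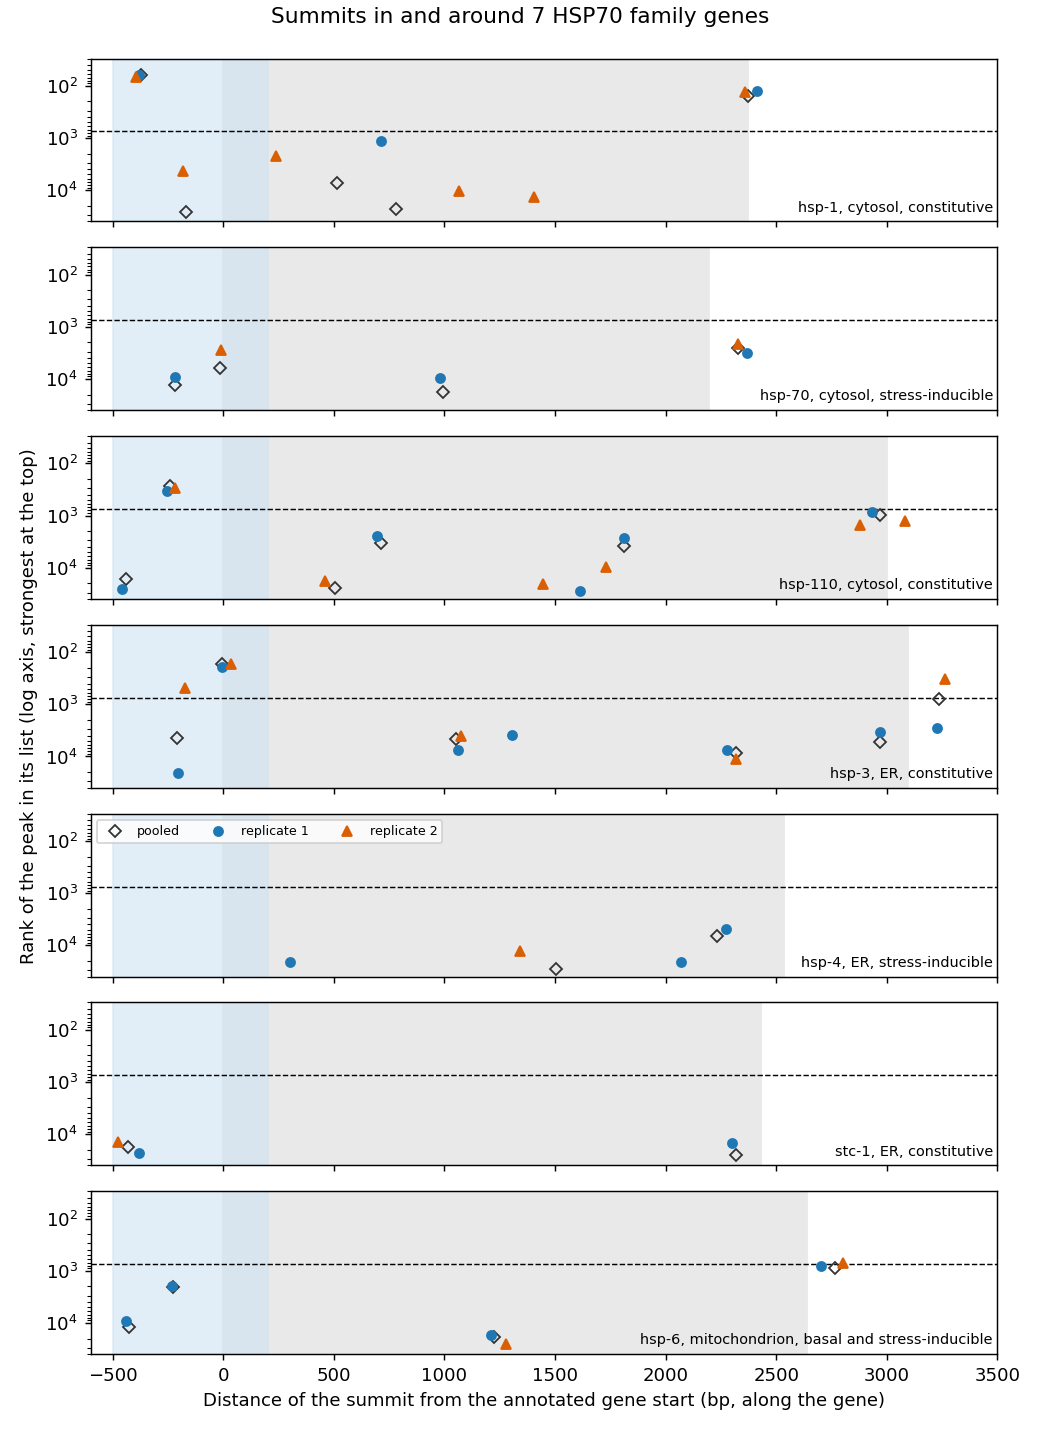
Summits in and around the 7 genes. The x axis is the distance from the annotated start in bp along the gene, the y axis is the rank of the peak in its list on a log scale with the strongest at the top, and symbols give the pooled list and both replicates. Blue marks the promoter window, grey the gene and the dashed line rank 750. Summits above that line lie near the start of hsp-1, hsp-110 and hsp-3 and at the end of hsp-1 in all 3 lists, while the gene-end summits of hsp-3 (ranks 779 pooled, 2789 in replicate 1 and 321 in replicate 2) and hsp-6 (ranks 872, 804 and 708) lie on both sides of it.

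Among the cytosolic members, hsp-1 (WBGene00002005, chrIV:17278959-17281330, plus strand) had the strongest promoter summit of the family. It encodes HSC70, the constitutive HSP70 of the cytosol and nucleus. Its signal was 226 in the pooled list, at rank 63, and the summit lay 373 bp upstream of the start. In replicate 1 the signal was 145 at rank 61, with the summit 381 bp upstream. In replicate 2 the signal was 87.0 at rank 69, with the summit 395 bp upstream. Both replicates thus placed it at nearly the same rank and 14 bp apart. Among the 327 nuclear protein-coding genes with a thresholded promoter summit it was 16th by signal, and its summit was farther upstream than the median of those genes, which lay 193 bp before the start. The ncRNA gene F26D10.23 lay 84 bp from the pooled summit, and the nearest other protein-coding start, that of clec-196, lay 1630 bp away. A weaker summit closer to the start, 170 bp upstream, was at pooled rank 26036.

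hsp-110 (WBGene00016250, chrIII:8443910-8446909, minus strand) encodes the HSP110 relative that acts as nucleotide exchange factor for cytosolic HSP70. Its promoter signal was 127 in the pooled list, at rank 268 and 240 bp upstream. Replicate 1 gave 76.6 at rank 346 and 255 bp upstream, and replicate 2 gave 50.6 at rank 299 and 220 bp upstream. The replicate summits were 35 bp apart. The gene shares this region with rpn-3, which encodes a subunit of the proteasome lid and is transcribed in the opposite direction from a start 444 bp away. The pooled summit lay 204 bp from the rpn-3 start, nearer than to that of hsp-110, and the replicate 1 summit was also nearer to rpn-3, at 189 bp. The replicate 2 summit was nearer to hsp-110, with rpn-3 at 224 bp. The peak cannot be assigned to either gene, and if each summit counted for its nearest gene only, hsp-110 would have none in the thresholded list.

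hsp-70 (WBGene00002026, sequence name C12C8.1, chrI:9320325-9322519, minus strand) encodes a cytosolic HSP70 that is strongly induced by heat, and it lies inside the span of uggt-2 on the opposite strand. Its promoter signal was 37.5 in the pooled list, at rank 6164 and 13 bp upstream. Replicate 1 gave 21.8 at rank 9270 and 216 bp upstream, whereas replicate 2 gave 24.3 at rank 2780 and 8 bp upstream. The replicates placed their strongest summit 208 bp apart, so they did not mark the same position. The pooled promoter signal of hsp-1 was 6.03 times that of hsp-70, and the ratio was 6.64 in replicate 1 and 3.58 in replicate 2.

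In the ER group, hsp-3 (WBGene00002007, chrX:6089028-6092124, minus strand) encodes a BiP homologue, the main HSP70 of the ER lumen, which is expressed without stress. Its promoter signal was 154 in the pooled list, at rank 170, with the summit 6 bp upstream of the start. Replicate 1 gave 96.0 at rank 190, also 6 bp upstream, and replicate 2 gave 60.2 at rank 172, 33 bp downstream of the start in the 5′ UTR. The replicate summits were 39 bp apart. The hsp-3 summit was unlike those of hsp-1 and hsp-110 in its position at the start itself. A summit within 10 bp of the start was found in 8 of the 327 nuclear genes with a thresholded promoter summit, or 2.45%. The 10 bp limit was chosen with the pooled position of hsp-3 known, and the replicate 2 summit lies outside it. Nothing is read from this share. Replicate 2 had a separate peak with a signal of 43.4 at rank 493, 174 bp upstream, and the corresponding summits were at rank 4345 in the pooled list and at rank 20313 in replicate 1.

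The other 2 ER members had weak promoter summits or none. hsp-4 (WBGene00002008, chrII:7350112-7352645, minus strand) encodes the BiP homologue that is induced by ER stress through IRE-1 and XBP-1. It had no promoter summit in any of the lists. Its strongest summit lay inside the gene, 2231 bp after the start, with a signal of 36.3 at pooled rank 6744. The strongest summit in replicate 1 lay 2275 bp after the start with a signal of 27.9 at rank 4951, and the only one in replicate 2 lay 1340 bp after the start with a signal of 14.2 at rank 12824. stc-1 (WBGene00006059, chrII:8563709-8566139, minus strand) encodes an HSP70-like protein of the microsomal Stch type. Its promoter signals were 23.6 at pooled rank 17412, 13.4 at rank 23573 in replicate 1 and 13.5 at rank 14190 in replicate 2. These summits lay 431, 380 and 477 bp upstream, and in all 3 lists the start of F54C9.3 was nearer than that of stc-1. The pooled signal of stc-1 was below the median of its list, which was 25.5.

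The mitochondrial member hsp-6 (WBGene00002010, chrV:4824124-4826760, minus strand) encodes mortalin, the matrix HSP70, whose transcription is raised by mitochondrial stress. Its promoter signal was 57.6 in the pooled list, at rank 2095 and 229 bp upstream, and 39.9 in replicate 1, at rank 1974 and 233 bp upstream. Replicate 2 had no summit in the window. The opposite gene C37H5.5 starts 600 bp from hsp-6, and its start lay 371 bp from the pooled summit. That summit is thus also a promoter summit of C37H5.5 and cannot be assigned to hsp-6 alone. The nearer end of the ncRNA gene C37H5.16, which is its 3′ end, lay 4 bp from that summit and C37H5.15 lay 89 bp away.

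The expression classes and compartments were taken from general knowledge of these genes, not from the labels or from values measured here. Constitutive is used for expression without stress and does not exclude induction by it. Set side by side, the 4 constitutive members had pooled promoter ranks of 63 (hsp-1), 170 (hsp-3), 268 (hsp-110) and 17412 (stc-1). Of the 2 stress-inducible members, hsp-70 was at rank 6164 and hsp-4 had no promoter summit. hsp-6, which has basal expression and is also inducible, was at rank 2095. All 3 thresholded promoter summits lay in the promoter windows of members classed as constitutive. The one of hsp-110 is shared with rpn-3 and cannot be assigned to either gene. The groups overlapped because stc-1 ranked below hsp-70 and hsp-6. Outside the members, the heat-inducible HSP70 genes F44E5.4 and F44E5.5 share a thresholded promoter summit at pooled rank 70. Such summits were thus not limited to constitutive HSP70 genes. Among the members by compartment, the cytosolic ranks were 63, 268 and 6164, and the ER ranks were 170 and 17412 with hsp-4 lacking one. The single mitochondrial gene fell between. The order from hsp-1 to hsp-3 to hsp-110 was the same in the pooled list and in both replicates. The signal of hsp-1 was 1.47 times that of hsp-3 in the pooled list, 1.51 times in replicate 1 and 1.45 times in replicate 2. hsp-6 ranked above hsp-70 in the pooled list and in replicate 1, whereas in replicate 2 hsp-70 had a promoter summit at rank 2780 and hsp-6 had none.

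Summits were also found at the other end of the genes. This window, 200 bp on each side of the annotated gene end, was chosen after the values had been seen. In the thresholded list 1 of the 7 genes, hsp-1, had such a summit, against 0.926% of all protein-coding genes. The pooled list had them at 6 of 7 (21.5% of all genes), replicate 1 at 6 of 7 (21.2%) and replicate 2 at 5 of 7 (17.3%). hsp-4 was again the member without one in every list, and stc-1 had none in replicate 2. The lowest q-value of the pooled list, which is its highest −log10 q-value, was shared by 1607 of the 30000 peaks. Among these peaks, 3 of 7 genes had a promoter summit (3.26% of all genes) and 4 of 7 had a gene-end summit (2.22%). The same 3 genes, hsp-1, hsp-3 and hsp-110, had both (0.28%). Across the genome, 34 of the 334 genes with a thresholded promoter summit, or 10.2%, had a gene-end summit at this lowest q-value. The share was 2.09% among the other 19651 genes. Of the 334 genes, 327 are nuclear and the rest mitochondrial, and a single summit can serve the end of a gene and the promoter of its neighbour.

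The reference sequences at the gene-end summits of hsp-1 (chrIV:17281316-17281436, plus strand), hsp-6 (chrV:4823936-4824056, minus strand) and hsp-3 (chrX:6088813-6088963, minus strand) are shown because the first lay in the thresholded list and the others were the strongest of the members' gene-end summits outside it. They are written 5′ to 3′ along the gene, with the 11 bases at the pooled summit in capitals.
hsp-1 gene end: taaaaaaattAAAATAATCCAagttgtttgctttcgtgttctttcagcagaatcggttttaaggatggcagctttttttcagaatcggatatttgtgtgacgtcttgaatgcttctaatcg
hsp-6 gene end: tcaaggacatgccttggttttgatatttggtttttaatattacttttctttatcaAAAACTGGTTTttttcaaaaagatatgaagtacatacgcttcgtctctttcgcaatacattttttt
hsp-3 gene end: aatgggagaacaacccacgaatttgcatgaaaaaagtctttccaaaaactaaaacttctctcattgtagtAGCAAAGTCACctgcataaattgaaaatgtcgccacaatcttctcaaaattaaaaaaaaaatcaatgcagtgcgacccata

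The hsp-1 gene-end signal was 158 in the pooled list, at rank 160 and 1 bp past the annotated end. Replicate 1 gave 112 at rank 126, 44 bp past the end, and replicate 2 gave 67.4 at rank 131, 11 bp before it in the 3′ UTR. The replicate summits were close in rank and lay 55 bp apart. The hsp-1 promoter signal was 1.43 times its gene-end signal in the pooled list and 1.29 times in each replicate. The next gene, nra-1, is convergent, and its start lay 2868 bp from the pooled summit, so no other protein-coding start was close. The annotated end of nra-1, at position 17281455, was close to the pooled summit at position 17281331. In each list the summit also fell in the gene-end window of nra-1, so it cannot be assigned to the end of hsp-1 alone.

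For hsp-6 the order was the opposite, with the gene-end signal above the promoter signal. It was 82.9 at pooled rank 872, 56.9 at rank 804 in replicate 1 and 38.7 at rank 708 in replicate 2, with summits 128, 68 and 168 bp past the end. The promoter signal was 0.695 times the gene-end signal in the pooled list and 0.701 times in replicate 1, and replicate 2 had only the gene-end summit. The nearest other start was that of adss-1, 573 bp from the pooled summit.

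The hsp-3 gene-end signal was 87.5 at pooled rank 779, just below the lowest thresholded signal of 88.6. Its replicates differed: the signal was 34.9 at rank 2789 in replicate 1 and 49.7 at rank 321 in replicate 2. The summits lay 140, 133 and 169 bp past the end in these 3 lists. The position was therefore shared while the ranks differed by a factor of 8.69, the widest gap when the strongest promoter or gene-end summit of each member is compared between replicates. The start of C45B2.8 was the nearest other one, 912 bp from the pooled summit.

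hsp-110 had a gene-end signal of 78.6 at pooled rank 990, 56.0 at rank 839 in replicate 1 and 31.5 at rank 1299 in replicate 2. The pooled summit lay 28 bp before the end, but it was also 331 bp from the start of ufbp-1, inside the promoter window of that gene. hsp-70 had 53.4 at pooled rank 2512, 33.2 at rank 3139 in replicate 1 and 26.6 at rank 2139 in replicate 2, and its pooled summit fell inside a tRNA gene (WBGene00012377) 134 bp past the end. The hsp-70 promoter signal was below its gene-end signal in all 3 lists, at 0.702, 0.656 and 0.915 times for the pooled list, replicate 1 and replicate 2. stc-1 had a gene-end signal of 18.8 at pooled rank 25372 and 17.4 at rank 14932 in replicate 1.

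**Figure D2:**
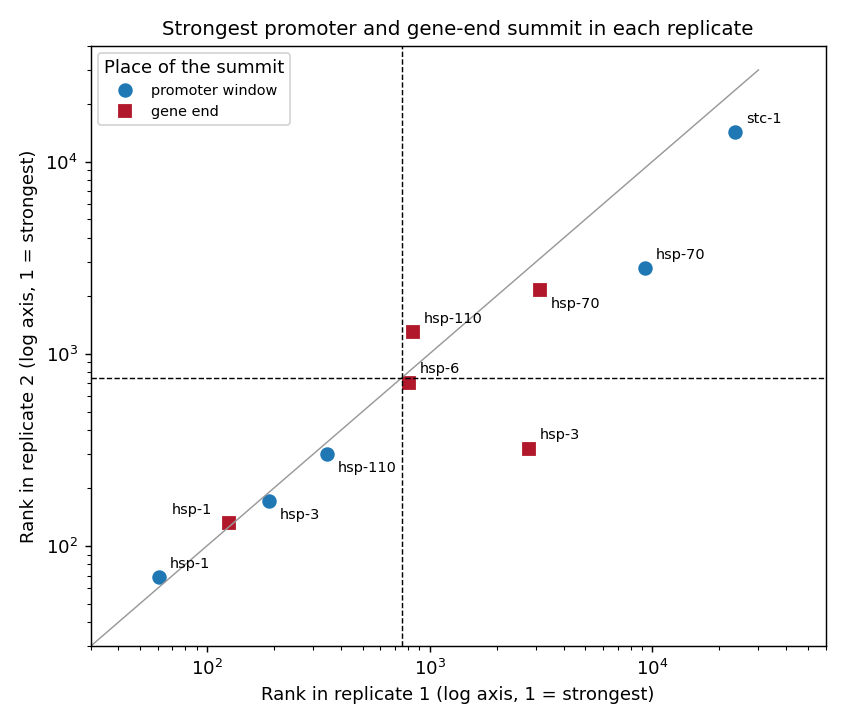
Rank of the strongest promoter summit (blue circles) and gene-end summit (red squares) of each gene in replicate 1 (x axis) and replicate 2 (y axis), both on log axes with 1 for the strongest peak. The grey line marks equal ranks and the dashed lines rank 750, and genes without a summit in both replicates are left out. The promoter summits of hsp-1, hsp-3 and hsp-110 and the gene-end summit of hsp-1 lie near the grey line, while the gene-end summit of hsp-3 is at rank 2789 in replicate 1 and 321 in replicate 2.

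Inside the genes, counted from start to end and so including summits in the UTRs, none of the 7 genes held a thresholded summit, where 1.28% of all protein-coding genes did. All 7 held at least 1 in the pooled list, against 44.3% of all genes, with 1 to 4 summits each. The mean was 2.00 per gene, against 0.789 in the 3014 genes whose length was between those of the shortest and longest members. In replicate 1 the mean was 2.14 against 0.778, and in replicate 2 it was 1.86 against 0.699. Away from the promoter window and the gene end, the highest rank was that of a summit of replicate 1 in hsp-1, in coding sequence 713 bp after the start, with a signal of 49.5 at rank 1134. The summits of replicate 2 there lay 238, 1065 and 1403 bp after the start, so this one did not recur at the same position. In hsp-110 a summit in coding sequence lay 713 bp after the start in the pooled list (rank 3418) and 696 bp after it in replicate 1 (rank 2474). The nearest summit of replicate 2 lay 459 bp after the start, at rank 18411.

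Heat shock elements were searched on both strands as inverted GAA units spaced by 2 bases. A pair of units (GAANNTTC or its tail-to-tail form) was found in the 701-base window of 6 of 7 members and of 60.6% of 19973 nuclear genes, so it separates little. At least 3 units, which contain pairs, were found in 4.44% of all windows, in 28 of the 327 nuclear genes with a thresholded promoter summit (8.56%), and in 4 members, namely hsp-1, hsp-110, hsp-70 and hsp-6. None of the ER members had such an element. A match is a description of the letters and not a measured binding site.

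The position of the ZNF-207 summit relative to the element differed among the members that had one. In hsp-110 the nearer of 2 elements ran from 237 to 225 bp upstream, 3 bp from the pooled summit, and the other lay 125 bp from it. In hsp-70 the element lay 48 bp from the pooled summit, but the replicate 1 summit was at another position, 216 bp upstream. In hsp-6 the element lay 66 bp from the pooled summit, and replicate 2 had no promoter summit. In hsp-1, whose peak was the strongest, the element ran from 144 to 132 bp upstream and lay 229 bp from the summit. A strong summit and a near element thus coincided in hsp-110 and not in hsp-1. Among the 28 genes with an element and a thresholded promoter summit, 7 had the pooled summit within 50 bp of it. They share 4 summits, those of F44E5.4/F44E5.5, hsp-110/rpn-3, C01G10.7/ahsa-1 and R107.5. ahsa-1 encodes the relative of AHA1, an activator of HSP90. In the 151 bases around each nuclear summit, 14 of 731 thresholded summits (1.92%) and 263 of 29980 pooled summits (0.877%) had such an element. The share at the 731 strongest nuclear summits was 1.37% in replicate 1 and 1.09% in replicate 2.

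**Figure D3:**
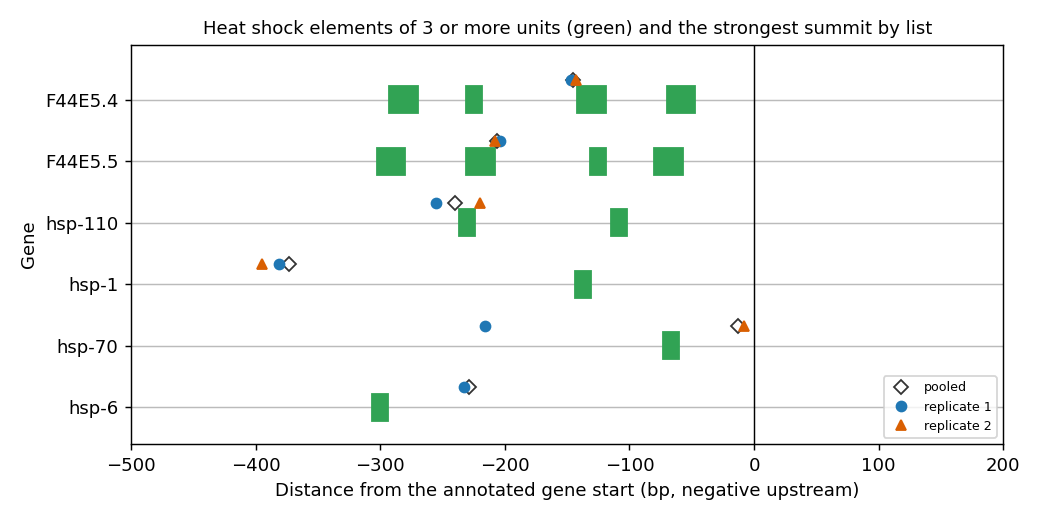
Heat shock elements of 3 or more units (green) and the strongest promoter summit in the pooled list and in each replicate, by distance from the annotated start in bp (x axis), for the 4 members and the heat-inducible pair that have both. In hsp-110 and in F44E5.4/F44E5.5 the pooled summit lies 3 bp from an element, and in hsp-1 it lies 229 bp away.

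Of the other elements, the XBP-1 element TGACGTGG was in none of the 7 windows and in 2.22% of all. Only this exact sequence was searched, so near matches such as TGACGTGT in the hsp-3 promoter shown above were not counted. The core of the XBP-1 element, ACGTG, was in 4 members (hsp-110, hsp-3, hsp-4 and stc-1), against 49.6% of all windows. hsp-4, which had no promoter summit, held the most matches, 4. A TATA box (TATAAA) was in 4 members (hsp-110, hsp-3, hsp-70 and stc-1) against 62.7% of all windows.

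The wider chaperone network was counted in lists of other genes, again chosen with results of these data known. A thresholded promoter summit was found at 11 of 53 genes, to be read beside the 1.67% of all protein-coding genes. Of 5 other HSP70-like genes, 2 had one, the heat-inducible F44E5.4 and F44E5.5, which start in opposite directions and share 1 summit. Its signal was 210 at rank 70 in the pooled list, 132 at rank 79 in replicate 1 and 76.5 at rank 101 in replicate 2. The summit lay 145 bp upstream of F44E5.4 and 206 bp upstream of F44E5.5, and moved by a few bp between replicates. These heat-inducible genes ranked next to hsp-1, whereas the heat-inducible hsp-70 was at rank 6164. The coding sequences of the pair are nearly identical, and how the authors placed reads that match several positions is not given in the sources used here.

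Of 14 cofactors of HSP70, 5 had a thresholded promoter summit. bag-1, a BAG nucleotide exchange factor, was at pooled rank 140, and C34C12.8, a GrpE-type exchange factor of the mitochondrion, at rank 326. The J-domain genes dnj-19, dnj-13 and dnj-12 were at ranks 254, 454 and 618. The dnj-19 summit lay 15 bp from the start of nhr-47, nearer than to its own. dnj-13 is the cofactor whose gene end was also in the thresholded list, with a signal of 123 at rank 291, 88 bp past the end. The same summit is a promoter summit of F54D5.7, at -69 bp from the start of that gene, and so nearer to it. Of 10 partner chaperones, Y22D7AL.10, a mitochondrial HSP10-type co-chaperonin, was at rank 44 with a signal of 281, and pdi-6, a protein disulfide isomerase, at rank 566. pdi-6 resembled hsp-3 in position, with the pooled summit 3 bp upstream of the start. The Y22D7AL.10 summit lay between the starts of that gene and of hsp-60, the mitochondrial chaperonin. It was 606 bp from the hsp-60 start, outside the promoter window of hsp-60, and to which gene it belongs was not tested. With this window hsp-60 had no promoter summit in the pooled list but a thresholded summit at its gene end (rank 645). hsp-90, the cytosolic HSP90, was at promoter rank 11545.

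None of 14 small heat shock protein genes had a thresholded promoter summit, which is near the 1.67% of all genes. A heat shock element of 3 or more units was in 6 of the 14 windows, against 4.44% of all. These were the windows of hsp-16.1, hsp-16.11, hsp-16.2, hsp-16.41, hsp-16.48 and hsp-16.49. They are not 6 separate regions, since the windows of the divergent pair hsp-16.2 and hsp-16.41 overlap. In the pooled list the strongest promoter summit of the 14 genes was the one that this pair shares. Its signal was 57.3 at pooled rank 2118, with rank 3753 in replicate 1 and 2084 in replicate 2. In replicate 1 sip-1 ranked higher, at 1792. Of the genes with an element, hsp-16.1, hsp-16.11, hsp-16.48 and hsp-16.49 had no promoter or gene-end summit in any list. How reads that match several positions were placed is not known here either, so these absences are not read as a lack of binding. Of 10 stress regulators, 2 had a thresholded promoter summit. ubl-5, a ubiquitin-like protein of the mitochondrial unfolded protein response, was at pooled rank 215, at 188 in replicate 1 and at 443 in replicate 2. xbp-1, the transcription factor of the ER response, was at pooled rank 728 but its replicates were far apart, at rank 379 and rank 8814. hsf-1 itself was at pooled rank 19205.

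**Figure D4:**
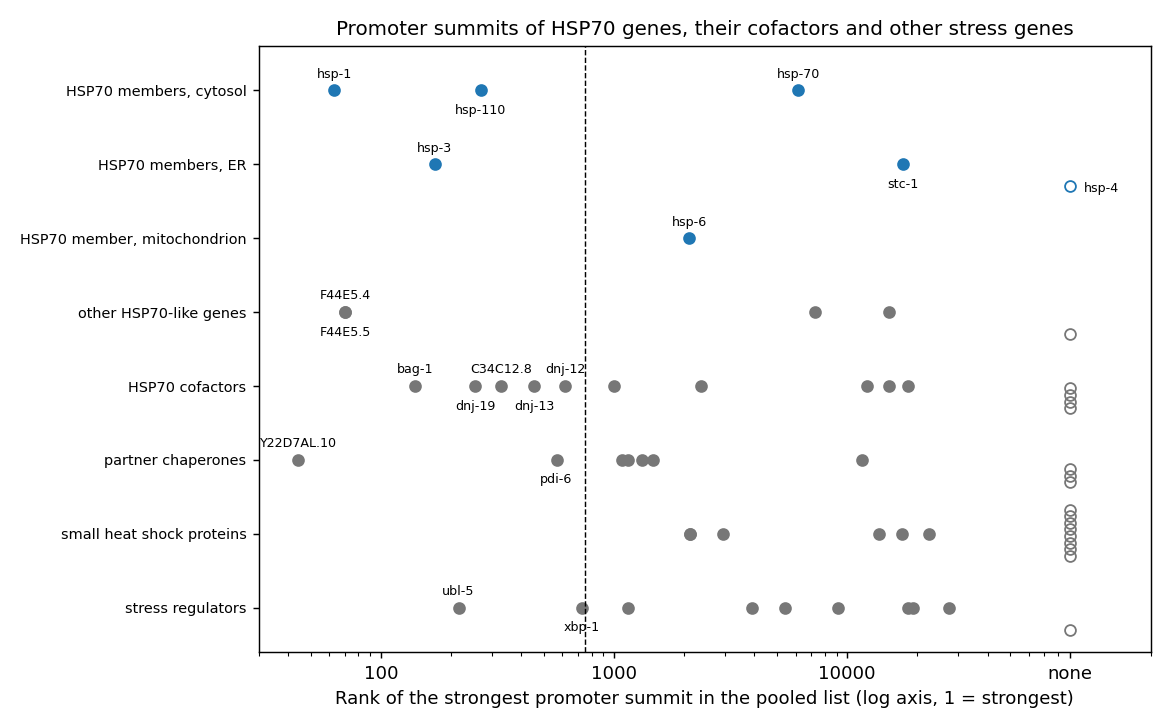
Pooled rank of the strongest promoter summit (x axis, log scale, 1 for the strongest) of the 7 genes by compartment (blue) and of 5 lists of related genes (grey), with open circles for genes without one and a dashed line at rank 750. The 11 named grey genes lie left of the line, and no small heat shock protein gene does.

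Genes were also ordered by how near their replicate ranks came to those of each member with a thresholded summit, measured as the distance in log10 rank over the 2 replicates among 2633 genes. Nearest to hsp-1 were set-16 and drr-2, which share a summit at rank 64 in both replicates, and tos-1 at ranks 66 and 57. Nearest to hsp-110 was rpn-3, by the shared summit, followed by gei-4 at ranks 359 and 305 and dpf-3 at ranks 338 and 282. Nearest to hsp-3 were nas-4 at ranks 215 and 181, his-37 at ranks 211 and 192 and iff-2 at ranks 166 and 193. This likeness rests on 2 ranks per gene only.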

How the data were processed

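ChIP-seq peak lists of 2 biological replicates of 1 group were used. Per the labels of the deposited lists, those of each replicate and of both pooled contain peaks with background that served as input to IDR (irreproducible discovery rate), and the thresholded list is the optimal IDR set. Which aligner and peak caller were used is not given in the sources used here. Column 7 is the signal deposited by the authors, scaled list by list, and the deposited −log10 q-value (column 9) was 2.47 at all 750 thresholded peaks. The deposited offset (column 10) gave the summit. A label names B0035.1 as the antibody, which was taken as the target. Lists in ce10 were not used, and no coordinates were converted.

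Summits were placed on Ensembl release 115 genes (WBcel235, the build of the ce11 lists) with Python 3.11.15, pandas 2.3.3 and numpy 2.4.6, with 1-based coordinates. A gene start is its outermost annotated one, neighbouring genes may share a summit, and ranks follow the signal in each list. Figures used matplotlib 3.10.9. The placement was tested on simulated data. Sequences are from the RefSeq WBcel235 genome. The members and lists were chosen with earlier results of these data known. Named are all members, listed genes with a thresholded promoter summit, genes starting nearer to a member summit than the member, and the 3 genes nearest in replicate ranks. Other names were chosen after their values were seen. Alternatives were other windows, the nearest gene, every transcript start, peak overlap, the stronger peaks and each replicate alone.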

Additional observations from a re-analysis of the deposited data

How the results depend on the processing

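The count of members with a thresholded promoter summit stayed at 3 under 6 of 8 alternatives. For each replicate alone, the 750 peaks strongest by signal stood in for the thresholded list, and the count was also 3. A window of 200 bp upstream to 100 bp downstream left 1 (hsp-3), and counting the nearest gene only left 2. With that narrow window the strongest summit of hsp-1 was at rank 26036, and hsp-6, hsp-110 and stc-1 had none. The share of all genes was 0.786% with the narrow window, 2.22% with 1000 bp upstream and 1.36% for the nearest gene only. It was 2.01% for any overlap of the peak and 0.816% for the stronger 375 peaks. With the 750 strongest peaks of a single replicate it was 1.43% to 1.63%. The number of members with a pooled gene-end summit, 6, was 2 within 100 bp and 7 within 500 bp of the end, 5 to 6 in a single replicate and 5 among the 3000 strongest pooled peaks. These gene-end alternatives were chosen after seeing the data. Why the values moved was not tested beyond the change of window itself. Without replicate 1, hsp-6 had no promoter summit. No paired analysis was possible because there is 1 group and no result comes from a test. The lists hold no read counts, so no limit of detection can be given for a gene without a summit.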
